A study of Mus musculus with 10 samples.

Results

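Genes of mitosis and of the G2/M transition were followed in esophageal epithelium, in wild-type animals and in mice lacking the Hippo kinases Mst1 and Mst2. The set holds 34 genes, taken by their symbols from the 56691 genes of the expression table, and all 34 were found. Levels were measured by RNA-seq in 10 libraries, 5 wild type and 5 knockout, and are given as FPKM, the fragments counted for a gene, scaled to its length and to the library total. Wild-type animals carried no allele named in the labels, and knockout animals were p63CreERT2;Mst1loxp/loxp;Mst2-/-. In the knockout, Mst2 was deleted in the germline and Mst1 was floxed, to be removed by a tamoxifen-inducible Cre named for p63, the transcription factor of basal squamous cells. Animals of both groups received 3 doses of tamoxifen at 100 mg/kg, given every 2 weeks, with RNA extraction at about 8 weeks. No age or genetic background is stated in the labels, and they do not say that each library is a separate mouse. The p-values therefore measure the spread between these samples, which may be in part technical. The Cre allele and the altered Mst1 and Mst2 alleles go together in the knockout and cannot be told apart.

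A cell that has copied its DNA enters mitosis when cyclin B and the kinase Cdk1 become active, and then condenses its chromosomes, attaches them to the spindle through kinetochores, and divides. Most genes for these steps are transcribed late in the cell cycle, from G2 into mitosis. They are repressed in resting cells by the DREAM complex and activated later by B-Myb and Foxm1, which act with the same MuvB core proteins. In stratified squamous epithelium such as that of the esophagus, cells divide in the basal layer and stop dividing as they move up and differentiate. Mst1 and Mst2 stand at the head of the Hippo kinase cascade, which restrains the growth-promoting coactivators YAP and TAZ. The replication genes Mcm2 to Mcm7 encode the 6 subunits of the helicase that opens DNA for replication, and served as the reference: the question was whether mitosis genes were higher in the knockout as clearly as these.

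Stk3, the gene of Mst2, lay between 2.08 and 3.48 FPKM in wild type and between 0.05 and 0.25 FPKM in knockout, so that each library matched its label for this gene. Stk4, the gene of Mst1, overlapped between the groups, with wild-type values of 17.0 to 22.7 FPKM and knockout values of 12.2 to 17.4 FPKM. A sum over the gene does not show a deletion of single exons. The suprabasal keratin Krt13 reached 38781 FPKM and the basal keratin Krt5 lay between 1275 and 2825 FPKM, both keratins of squamous epithelium. Libraries held an estimated 13070000 to 16440000 fragments. At these totals the values of the 34 genes stood for about 26 fragments (Ttk in its lowest library) to 3123 fragments (Mki67 in its highest), on gene lengths from another annotation release.

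None of the 34 mitosis and G2/M genes passed the test for a difference between the genotypes, although the mean of every one was higher in knockout. By limma on log2(FPKM + 1), with Benjamini-Hochberg adjustment over the 11386 tested genes, 0 of 34 were called higher and 0 lower, at an adjusted p under 0.05. Of all tested genes 7.90% were called higher and 4.96% lower. The higher calls made up 61.4% of all calls, against 46.6% after median-ratio scaling and 47.9% after quantile normalization. The adjusted p of the 34 genes ranged from 0.0676 for Prc1 to 0.809 for Cenpf. At an unadjusted p under 0.05, 13 of the 34 were higher, against 19.1% of all tested genes, and 7 were so by an exact two-sided permutation test of each gene. All 34 had a positive log2 fold change, against 58.6% of tested genes, with a median of 0.56 where the median over all tested genes was 0.06. Every sign stayed positive with median-ratio scaling and with quantile normalization. Positive signs in 34 genes are not 34 separate observations, since the same libraries were high or low for nearly all of them. In bulk RNA a larger share of dividing cells and more of a transcript per dividing cell cannot be told apart.

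Libraries of the same genotype differed widely in these genes, and in much the same order for each gene. Wild type 1 had the lowest value of all 10 libraries for each of the 34 genes. Within wild type, library 3 was the highest for 33 of 34 genes, the exception being Cdca8. Knockout 2 was the lowest of the knockout libraries for all 34, and knockout 3 or knockout 5 was the highest of all 10 libraries for 30 of them. Wild type 3 was above knockout 2 for all 34 genes and above the knockout median for 23, so that the groups overlapped for every gene. Of all tested genes, 6.62% had all knockout values above all wild-type values and 3.88% had all below.

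**Figure D1:**
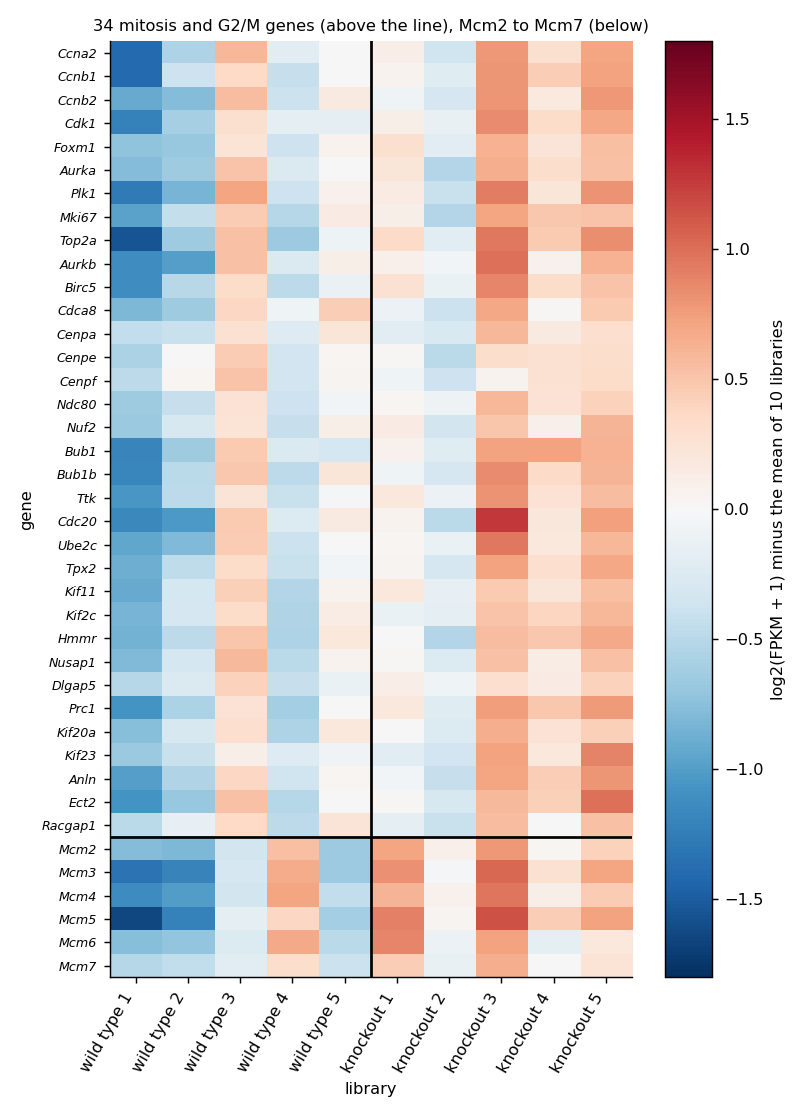
Heat map of log2(FPKM + 1) for each gene in each library, as the difference from that gene's mean over the 10 libraries (red higher, blue lower); the horizontal line parts the 34 mitosis and G2/M genes from Mcm2 to Mcm7 and the vertical line parts wild type from knockout. Wild type 1 is blue for all 34 genes, wild type 3 is red although it is a wild-type library, and wild type 4 is red for the Mcm genes and blue for the mitosis genes.

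Promoter letters known from G2/M genes, which the choice by name did not use, were searched for next. The cell cycle genes homology region (CHR) is bound by the MuvB core and lies near the start of many G2/M genes, often below CCAAT boxes bound by NF-Y. RefSeq promoter windows on GRCm38.p6, each of 300 bases and most of them before the start, were matched by symbol for 28 of the 34 genes and for 5 of the 6 Mcm genes. A CHR, searched as TTTGAA or TTCGAA on both strands, was found for 23 of the 28 genes (82.1%), against 21.7% of the 27025 genes with a window. CCAAT, on both strands, was found for 22 (78.6%), against 41.1% of all. A CHR and a CCAAT in the same window were held by 20 genes (71.4%), against 8.6% of all. For the Mcm genes the E2F letters TTTGGCGC, TTTCGCGC or TTCCCGCC, on both strands, were found for 4 of 5 genes, against 1 of the 28 mitosis genes and 3.4% of all genes. All 5 Mcm genes held a CCAAT and 2 of them a CHR. TTCGAA reads the same on both strands, and the E2F words TTTCGCGC and the reverse of TTTGGCGC can overlap. Such matches describe the letters only and show no binding.

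Shown here are the windows of the cyclin Ccnb2 (chr9:70421505-70421804, minus strand), its kinase Cdk1 (chr10:69352863-69353162, minus strand) and the anaphase activator Cdc20 (chr4:118437294-118437593, minus strand), as examples of a CHR with CCAAT boxes. Mcm5 (chr8:75109259-75109558, plus strand) is set beside them as the replication gene with the largest fold change. Positions are on GRCm38.p6, not on the mm9 build of the expression table, and each sequence runs 5′ to 3′ on the strand of the gene. In the first 3 windows capitals mark CHR letters (TTTGAA or its reverse complement) and CCAAT (or ATTGG on the other strand). In the window of Mcm5 capitals mark the E2F letters, where 2 matches overlap. Left in small letters are the 1 E2F match of Cdk1, the mitosis gene counted above with such letters, and the 3 CCAAT matches of Mcm5.
Ccnb2: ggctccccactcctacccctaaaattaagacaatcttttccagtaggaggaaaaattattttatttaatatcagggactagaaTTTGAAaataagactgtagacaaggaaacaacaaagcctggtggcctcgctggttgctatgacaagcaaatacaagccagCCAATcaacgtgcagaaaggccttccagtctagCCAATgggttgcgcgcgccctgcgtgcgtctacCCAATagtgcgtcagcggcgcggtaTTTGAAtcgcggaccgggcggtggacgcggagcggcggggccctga
Cdk1: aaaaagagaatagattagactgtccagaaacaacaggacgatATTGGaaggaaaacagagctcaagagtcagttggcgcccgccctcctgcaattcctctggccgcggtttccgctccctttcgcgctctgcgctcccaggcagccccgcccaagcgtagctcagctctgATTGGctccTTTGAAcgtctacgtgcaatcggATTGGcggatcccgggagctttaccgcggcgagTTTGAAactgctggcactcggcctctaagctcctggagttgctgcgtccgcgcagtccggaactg
Cdc20: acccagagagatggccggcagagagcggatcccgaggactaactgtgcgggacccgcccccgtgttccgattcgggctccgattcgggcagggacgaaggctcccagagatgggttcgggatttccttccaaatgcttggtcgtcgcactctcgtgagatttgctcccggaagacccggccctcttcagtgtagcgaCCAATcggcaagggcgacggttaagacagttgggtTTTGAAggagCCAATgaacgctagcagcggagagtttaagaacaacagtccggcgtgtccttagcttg
Mcm5: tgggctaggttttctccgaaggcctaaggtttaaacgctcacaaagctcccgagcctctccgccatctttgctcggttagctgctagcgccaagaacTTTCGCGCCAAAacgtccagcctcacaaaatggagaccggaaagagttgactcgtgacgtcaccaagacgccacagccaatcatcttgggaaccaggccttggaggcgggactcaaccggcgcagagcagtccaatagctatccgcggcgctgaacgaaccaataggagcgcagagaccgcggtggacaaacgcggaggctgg

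The proliferation marker Mki67 (ENSMUSG00000031004, chromosome 7) encodes a protein that coats mitotic chromosomes. It stood at 6.33, 9.61, 18.7, 9.04 and 14.9 FPKM over wild type 1 to 5 and at 14.4, 8.88, 22.4, 19.0 and 19.4 over knockout 1 to 5. Wild type 3 stood above knockout 1 and knockout 2, and knockout 2 was below 4 of the wild-type libraries. The means were 11.7 ± 4.99 and 16.8 ± 5.27 FPKM (SD, n = 5 and 5). The log2 fold change was 0.51 (SE 0.29, 95% interval -0.13 to 1.15; limma adjusted p = 0.264). Top2a (ENSMUSG00000020914, chromosome 11), the topoisomerase that untangles sister chromatids, stood at 3.27, 7.04, 17.2, 7.02 and 10.8 FPKM over wild type 1 to 5 and at 15.0, 9.99, 23.2, 16.4 and 21.3 over knockout 1 to 5. Its log2 fold change of 0.96 (SE 0.35, 95% interval 0.19 to 1.74; limma adjusted p = 0.0955) was the largest of the 34. Wild type 3 kept the groups from parting, since it exceeded knockout 1, 2 and 4, and wild type 5 exceeded knockout 2.

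Each of the 7 genes that start and drive mitosis had a higher mean in knockout without passing the test, with log2 fold changes of 0.47 to 0.74 and a median of 0.62. Ccnb1 (ENSMUSG00000041431, chromosome 13), the B-type cyclin of mitotic entry, stood at 1.64, 4.40, 7.96, 4.22 and 6.03 FPKM over wild type 1 to 5 and at 6.32, 5.03, 11.1, 8.54 and 10.6 over knockout 1 to 5. Its log2 fold change was 0.73, with SE 0.31 and a limma adjusted p of 0.139. Cdk1 (ENSMUSG00000019942, chromosome 10), the kinase bound by that cyclin, stood at 1.03, 2.11, 4.75, 3.22 and 3.19 FPKM over wild type 1 to 5 and at 4.06, 3.31, 7.54, 4.92 and 6.65 over knockout 1 to 5. Without wild type 3, whose value lay above knockout 1 and knockout 2, every wild-type value of Cdk1 would be below every knockout value. The log2 fold change of Cdk1 was 0.74 (SE 0.27; limma adjusted p = 0.0919). The other members of this class were the cyclins Ccna2 and Ccnb2, the kinases Aurka and Plk1, and the transcription factor Foxm1. Their adjusted p ranged from 0.0877 for Foxm1 to 0.268 for Ccnb2. Foxm1, which switches on many of the other genes, averaged 1.48 ± 0.761 in wild type against 2.66 ± 0.765 FPKM in knockout (SD, n = 5 and 5).

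**Figure D2:**
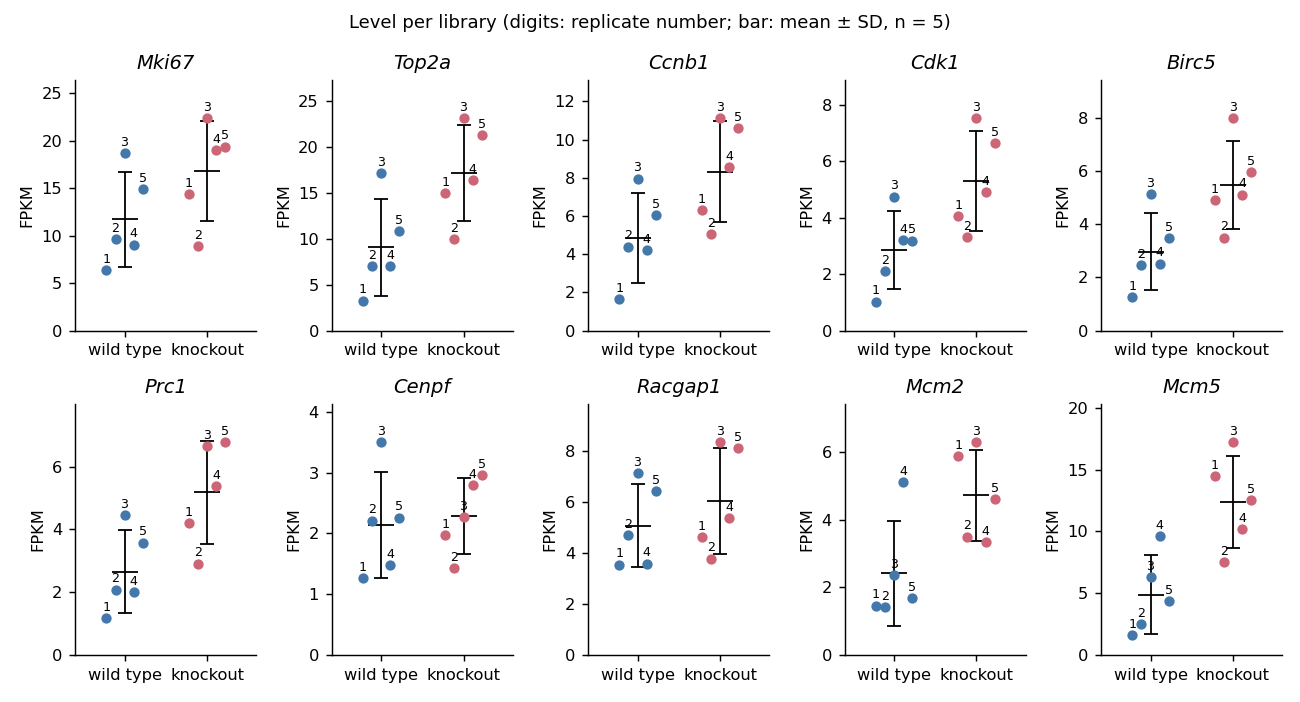
FPKM of 8 mitosis and G2/M genes and of Mcm2 and Mcm5 in each library (vertical axis, starting at 0), with wild type in blue, knockout in red, digits for the replicate number and bars for the mean ± SD (n = 5). Wild type 3 is the highest wild-type point in each of the 8 mitosis panels, and wild type 4 is the highest in the Mcm2 and Mcm5 panels.

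The 5 genes of the centromere and kinetochore, which hold chromosomes to the spindle, had the lowest median log2 fold change of the 8 classes, 0.24. Cenpf, a large kinetochore protein, had the smallest difference of all 34, at 1.26, 2.21, 3.50, 1.48 and 2.26 FPKM over wild type 1 to 5 and at 1.97, 1.43, 2.27, 2.79 and 2.96 over knockout 1 to 5. Its highest value was that of wild type 3, and its log2 fold change was 0.08 (SE 0.19, 95% interval -0.34 to 0.51; limma adjusted p = 0.809). Cenpe, the kinesin of the kinetochore, stood at 1.42, 2.58, 3.94, 1.83 and 2.69 FPKM over wild type 1 to 5 and at 2.67, 1.58, 3.47, 3.35 and 3.50 over knockout 1 to 5, with a log2 fold change of 0.18 (SE 0.21). Here too the single highest library was wild type 3. The histone variant Cenpa, which marks the centromere, had a log2 fold change of 0.24 (SE 0.20). Ndc80 and Nuf2, which bind microtubules together, had log2 fold changes of 0.49 (SE 0.18) and 0.41 (SE 0.21). Ndc80 was the lowest of the 34, at 0.816 ± 0.459 in wild type against 1.53 ± 0.484 FPKM in knockout (SD, n = 5 and 5), so it met the filter of 1 FPKM mainly through knockout libraries.

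The spindle checkpoint, which holds the cell until all chromosomes are attached, is served by Bub1, Bub1b and Ttk. Bub1 (ENSMUSG00000027379, chromosome 2) stood at 0.41, 1.07, 3.47, 1.68 and 1.58 FPKM over wild type 1 to 5 and at 2.39, 1.77, 4.32, 4.34 and 3.96 over knockout 1 to 5. All its wild-type values but that of wild type 3 lay below all knockout values. The mean was 2.04 times as high in knockout, the largest ratio of mean FPKM of the 34 genes, and the log2 fold change was 0.77 (SE 0.29, limma adjusted p = 0.0978). Ttk and Bub1b had log2 fold changes of 0.69 (SE 0.23) and 0.57 (SE 0.31). The anaphase promoting complex ends the checkpoint through its activator Cdc20 and the ubiquitin-conjugating enzyme Ube2c. Cdc20 was the most abundant of the 34 per gene length, at 13.3 ± 6.79 in wild type against 22.3 ± 11.0 FPKM in knockout, where knockout 3 reached 39.1 FPKM. Its log2 fold change of 0.72 had the widest error (SE 0.39), and that of Ube2c was 0.66 (SE 0.28; limma adjusted p = 0.242 and 0.138).

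The chromosomal passenger genes Aurkb, Birc5 and Cdca8, whose products correct wrong attachments, had log2 fold changes of 0.69 (SE 0.32), 0.75 (SE 0.25) and 0.28 (SE 0.28). Birc5 (survivin) averaged 2.96 ± 1.44 in wild type against 5.49 ± 1.66 FPKM in knockout (limma adjusted p = 0.0688), with 1 wild-type library, number 3, above knockout 1, 2 and 4. The 6 spindle genes ranged less widely. Their log2 fold changes ran from 0.36 for Dlgap5 to 0.58 for Tpx2, the activator of Aurora A, with the spindle motor Kif11 at 0.51, the microtubule depolymerase Kif2c at 0.48, Hmmr at 0.47 and Nusap1 at 0.38. None passed (limma adjusted p = 0.136 for Tpx2, the smallest of them).

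The 6 cytokinesis genes had log2 fold changes from 0.21 for Racgap1 to 0.79 for Prc1. Prc1 (ENSMUSG00000038943, chromosome 7), which bundles the microtubules of the spindle midzone, stood at 1.16, 2.08, 4.45, 1.99 and 3.58 FPKM over wild type 1 to 5 and at 4.21, 2.91, 6.64, 5.37 and 6.77 over knockout 1 to 5. Its log2 fold change of 0.79 (SE 0.26, 95% interval 0.22 to 1.36; limma adjusted p = 0.0676) came nearest to the threshold. Wild type 3 exceeded knockout 1 and 2, and wild type 5 exceeded knockout 2. Racgap1, a subunit of centralspindlin, stood at 3.54, 4.70, 7.12, 3.58 and 6.42 FPKM over wild type 1 to 5 and at 4.63, 3.78, 8.34, 5.36 and 8.10 over knockout 1 to 5, and its log2 fold change was 0.21 (SE 0.22, limma adjusted p = 0.578). Its partner in centralspindlin, the kinesin Kif23, had a log2 fold change of 0.50 (SE 0.24), the exchange factor Ect2 0.70 (SE 0.31), the ring scaffold Anln 0.59 (SE 0.28) and the kinesin Kif20a 0.44 (SE 0.23).

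**Figure D3:**
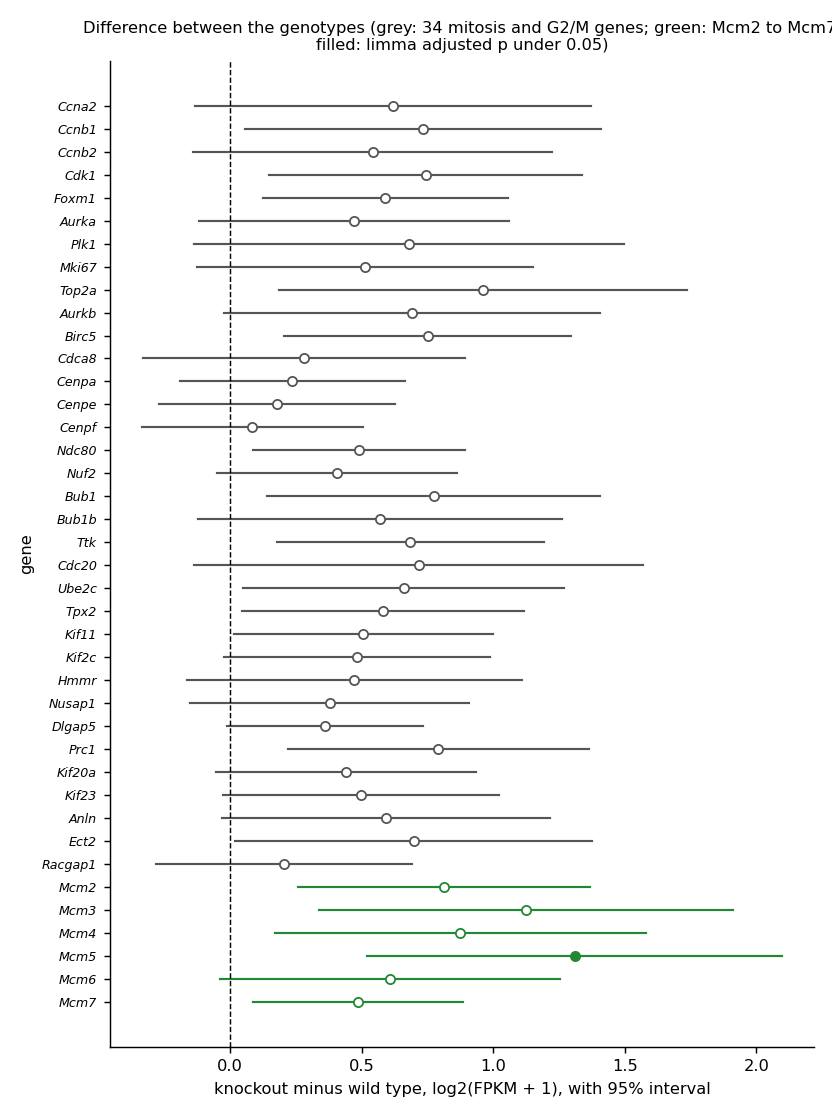
Knockout minus wild type on the log2(FPKM + 1) scale (horizontal axis) for the 34 mitosis and G2/M genes in grey and Mcm2 to Mcm7 in green, with 95% intervals from limma and filled points for an adjusted p under 0.05. All points lie to the right of 0, Mcm5 alone is filled, and the intervals of the grey genes overlap those of the green ones except for Cenpf against Mcm5.

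Of the 6 Mcm genes 1 was called. Mcm5 rose by 1.31 log2 units (SE 0.36, limma adjusted p = 0.0371). The other 5 did not pass, with limma adjusted p of 0.0562 for Mcm2 to 0.192 for Mcm6. The median log2 fold change of the 6 was 0.84, against 0.56 for the mitosis genes, and 5 of the 6 were higher at an unadjusted p under 0.05. Mcm5 stood at 1.63, 2.52, 6.31, 9.61 and 4.37 FPKM over wild type 1 to 5 and at 14.45, 7.52, 17.2, 10.2 and 12.5 over knockout 1 to 5. Mcm2 stood at 1.46, 1.42, 2.37, 5.12 and 1.68 FPKM over wild type 1 to 5 and at 5.89, 3.50, 6.29, 3.34 and 4.62 over knockout 1 to 5. For all 6 Mcm genes the only overlap came from wild type 4, since every other wild-type value lay below every knockout value. That library was singled out by these same values, and the share of all tested genes that part without it was not counted. Of the mitosis genes, 4 had every wild-type value but that of wild type 3 below every knockout value, Cdk1 and Bub1 among them. Wild type 3 was likewise singled out by the values of these genes, and the share of all tested genes that part without it was not counted. Neither count can therefore be read as particular to these genes. Wild type 4 was the highest wild-type library for all 6 Mcm genes and for none of the mitosis genes.

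The difference from the Mcm genes was also tested directly. For every tested gene, the mean log2 value of Mcm2 to Mcm7 in the same library was subtracted and the genotypes were compared again. Relative to the Mcm mean, 33 of the 34 mitosis genes were lower in knockout and Top2a was higher (0.09). Of the 11386 tested genes 11091 were lower too, so this direction is not particular to the mitosis genes. The direction also depended on the fit. The 33 became 26 without wild type 3, and 7 with a covariate for the basal keratins, which is described below. The differences of the 34 genes ran from -0.78 for Cenpf to 0.09 for Top2a, with a median of -0.31. By limma 0 of 34 passed in either direction, but with sample quality weights 29 of 34 were called lower relative to the Mcm mean. Those weights were estimated after the Mcm mean was subtracted. The share of all tested genes called lower with them was not counted, so the 29 cannot be read as particular to mitosis genes. Without weights, Cenpf had the smallest adjusted p (limma adjusted p = 0.0654) and was the only one whose 95% interval left out 0. Of all tested genes, 46.2% were called lower than the Mcm mean and 0.580% higher. The 95% intervals were wide, reaching from -1.06 to 0.35 for Mki67, from -0.85 to 0.57 for Ccnb1 and from -0.85 to 0.59 for Cdk1. For 33 of the 34 genes a difference of 0 from the Mcm mean lay within the interval, as did differences of some size below it.

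The answer depended on single libraries as well as on their weights. Without wild type 3, limma called 11 of the 34 mitosis genes higher. They were Birc5, Bub1, Top2a, Prc1, Dlgap5, Ttk, Ndc80, Foxm1, Cdk1, Ube2c and Kif11. Without knockout 2 it called Prc1 and Birc5, and leaving out any other library gave 0. Of the 11386 tested genes, 795 were called higher without wild type 3 and 674 without knockout 2. Each library was left out in turn, but wild type 3 stood out through the values of these same mitosis genes, and wild type 4 through those of the Mcm genes. Without wild type 4, all 6 Mcm genes were called higher, beside 952 of the 11386 tested genes. In that fit 14 mitosis genes were called lower relative to the Mcm mean. The share of all tested genes called lower relative to the Mcm mean in that fit was not counted. The call of Mcm5 ended without wild type 1, 2 or 5 or without knockout 1, 3, 4 or 5, with adjusted p of 0.0511 to 0.0823.

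Genes of the circadian clock output moved against the mitosis genes from library to library. The mean of log2(FPKM + 1) over the 34 genes was 1.41, 1.83, 2.74, 1.94 and 2.38 in wild type 1 to 5 and 2.38, 2.05, 3.02, 2.61 and 2.94 in knockout 1 to 5. A clock score, the mean log2 value of the output genes Dbp, Nr1d1, Per3 and Tef, ran 4.69, 3.95, 2.50, 4.33 and 3.05 across wild type 1 to 5, and 4.08, 3.76, 2.13, 2.23 and 1.48 across knockout 1 to 5. In both genotypes the 2 libraries with the highest mitosis mean were the 2 with the lowest clock score. None of the 4 clock genes passed between the genotypes (limma adjusted p = 0.169 to 0.440). All 4 nevertheless had negative log2 fold changes, from -1.16 to -0.77, and the score averaged 3.70 in wild type and 2.74 in knockout. The score thus differed in part with genotype, and a fit that holds both cannot fully tell them apart. With the clock score as covariate, the median log2 fold change of the mitosis genes was 0.14 in place of 0.56, with 29 of 34 positive, 0 called and 1 at an unadjusted p under 0.05. The median of the Mcm genes was 0.83 in place of 0.84 with that covariate, though Mcm5 was no longer called. The labels do not state the hour at which tissue was taken.

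**Figure D4:**
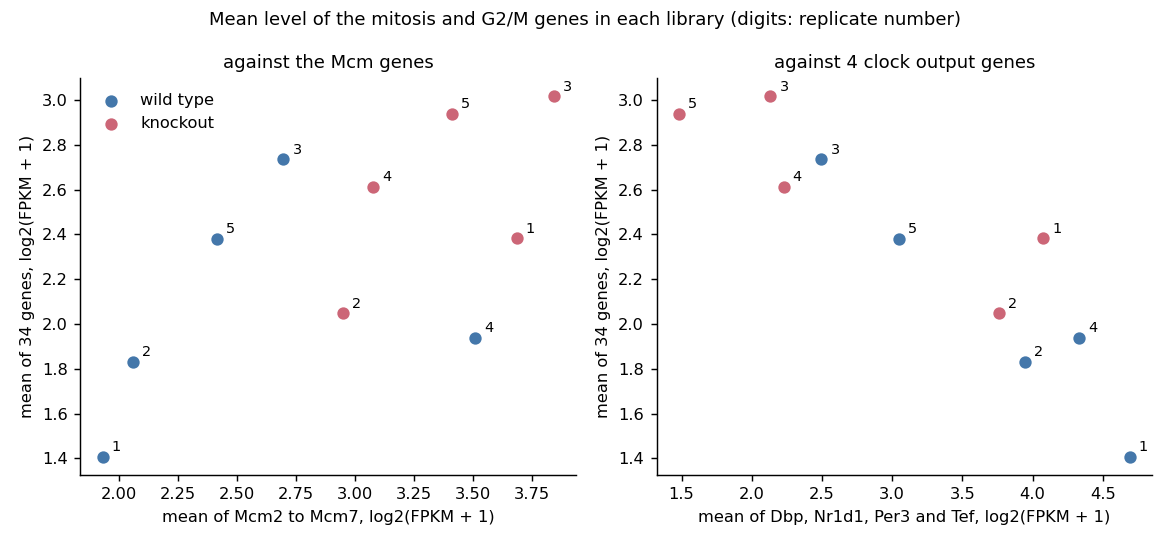
Mean log2(FPKM + 1) of the 34 mitosis and G2/M genes in each library (vertical axis) against the mean of Mcm2 to Mcm7 (left) and of the clock genes Dbp, Nr1d1, Per3 and Tef (right), wild type in blue, knockout in red, digits for the replicate number. On the left wild type 4 has an Mcm mean of 3.51, inside the knockout range of 2.95 to 3.84, at a mitosis mean of 1.94; on the right the mitosis mean is low where the clock score is high, in both genotypes.

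Markers of the dividing layer did not move together between the genotypes. The mean log2 value of the basal keratins Krt5, Krt14 and Krt15 lay between 9.75 and 10.45 for wild type and between 10.03 and 10.46 for knockout, with wild type 4 the highest of its group. With this score as covariate the median of the mitosis genes was 0.52, and that of the Mcm genes was 0.35 in place of 0.84. Summed FPKM of the 8 basal markers spanned 3043 to 4942 for wild type against 3563 to 5253 for knockout, and that of the 4 suprabasal markers 67050 to 75310 and 64940 to 73330. Of the basal markers 2 fell by the test, Trp63 (log2 fold change -0.76) and Col17a1 (-0.81). Trp63 is the gene of p63, for which the Cre allele of the knockout is named. Whether that allele alters the Trp63 level was not tested and cannot be told apart here. Dst (-0.23), Itgb4 (-0.22) and Itga6 (-0.18) also had lower means in knockout, without passing. Only the 3 keratins of the score had positive log2 fold changes, Krt5 0.40, Krt14 0.29 and Krt15 0.11, and none passed. The score and the sum, which is mostly keratin, therefore do not stand for all basal markers. The 12 immune markers summed to 10.8 to 40.4 FPKM in wild type and 14.1 to 30.5 FPKM in knockout, with none at 0 in every library. Cd74, the most abundant, ranged from 4.33 to 28.3 in wild type against 3.96 to 14.2 FPKM in knockout, with a lower mean in knockout. The macrophage marker Cd68 went the other way, at 6.63 ± 2.82 in wild type against 11.4 ± 3.72 FPKM in knockout (SD, n = 5 and 5). Its log2 fold change was 0.72 and did not pass (limma adjusted p = 0.0787). The 7 mesenchymal markers summed to 4.44 to 13.6 FPKM in wild type and 0.07 to 1.13 FPKM in knockout, nearly all of it Dcn. Dcn fell by the test (log2 fold change -2.83, limma adjusted p = 8.6e-05). The other 6 stayed under 1 FPKM in every library, with Col1a2 and Pdgfrb at 0 throughout, so the sum describes Dcn and not the list. Endothelial markers reached at most 0.14 FPKM (Cdh5, Emcn and Kdr at 0 in all libraries), muscle markers 1.08 FPKM (Des and Myh2 at 0) and glial markers 0.46 FPKM (Sox10 at 0), as sums over their lists. The part of these cells in the mitosis gene values was not tested.

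**Figure D5:**
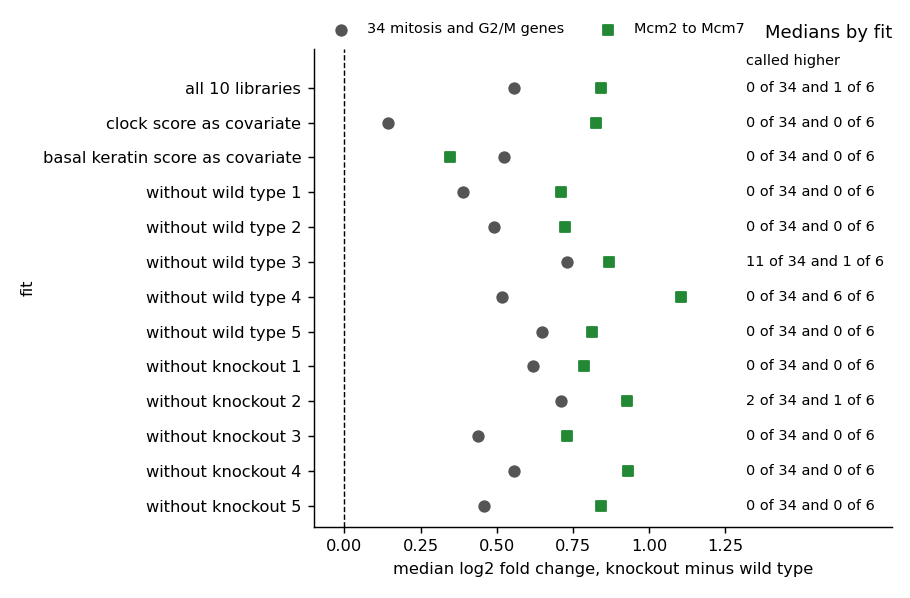
Median log2 fold change (horizontal axis) of the 34 mitosis and G2/M genes (grey circles) and of Mcm2 to Mcm7 (green squares) in the fit of all 10 libraries, with a covariate, and without each library in turn, with the number of genes called higher at the right. The mitosis median falls to 0.14 with the clock score and the Mcm median to 0.35 with the basal keratin score, and the calls change most without wild type 3 and without wild type 4.

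Genes of the pathway outside the 34 held some calls. Of 63 further mitotic genes 54 were tested, and 7 rose (13.0%), 0 fell and 47 did not pass, with a median log2 fold change of 0.44. Cenph, a protein of the inner kinetochore, rose from 1.10 ± 0.415 to 3.01 ± 0.685 FPKM (SD, 5 libraries each; log2 fold change 0.94, SE 0.17; limma adjusted p = 0.00366). Its wild-type values were 0.48 to 1.59 FPKM and its knockout values 2.02 to 3.84 FPKM, without overlap, and it was called without each single library. The checkpoint protein Bub3 rose from 6.14 ± 0.670 to 8.48 ± 0.625 FPKM (limma adjusted p = 0.0166; 0.0504 without wild type 5). Spc25 and Spc24, which anchor Ndc80 and Nuf2 to the centromere, rose from 1.61 ± 0.887 to 3.35 ± 0.521 FPKM and from 1.09 ± 0.507 to 2.26 ± 0.572 FPKM (limma adjusted p = 0.0260 and 0.0383). Their calls ended when single libraries were left out, that of Spc25 without wild type 1, knockout 3 or knockout 5 (up to 0.0645) and that of Spc24 without any of 7 libraries (up to 0.0867).

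Condensin, which compacts chromosomes for mitosis, had 8 tested genes, of which 2 rose. Smc4 rose from 11.4 ± 2.62 to 18.1 ± 2.21 FPKM (SD, 5 libraries each; limma adjusted p = 0.0145) and was called without each single library. Smc2 rose from 3.83 ± 1.83 to 7.66 ± 1.70 FPKM (limma adjusted p = 0.0385), a call lost without any of 7 libraries (up to 0.0864). Of the anaphase promoting complex list, which holds subunits, the coactivator Fzr1 and the ubiquitin-conjugating enzyme Ube2s, 0 of 16 passed, with 2 at an unadjusted p under 0.05, Anapc10 and Anapc4, and a median of 0.08.

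Among 16 tested genes of the MuvB core, its partners and the E2F family, 3 rose and 1 fell. Lin9, the MuvB subunit, rose from 1.08 ± 0.290 to 2.22 ± 0.647 FPKM (SD, 5 libraries each; limma adjusted p = 0.0169; 0.0504 without wild type 5). Tfdp1, the dimer partner of E2F proteins, rose from 19.7 ± 3.47 to 28.5 ± 2.58 FPKM (limma adjusted p = 0.0150) and the activator E2f2 from 1.37 ± 0.379 to 3.25 ± 1.25 FPKM (limma adjusted p = 0.0172). Rbl2, the p130 pocket protein of the DREAM complex, fell from 3.99 ± 0.664 to 2.63 ± 0.235 FPKM (limma adjusted p = 0.0244), a call lost without wild type 1 or 5 or knockout 1, 3 or 5 (up to 0.0658). A list of cell cycle inhibitors and checkpoint genes, some of which, such as Cdkn2b, Cdkn2c and Cdkn1b, act mainly before replication, had 12 tested genes. Of these 1 rose (8.33%, near the 7.90% of all tested genes), Wee1, the kinase that inhibits Cdk1. It went from 4.45 ± 1.69 to 7.22 ± 0.923 FPKM (limma adjusted p = 0.0401), and the call ended without any of 7 libraries (up to 0.0926). The checkpoint kinase Chek1 averaged 0.986 ± 0.648 in wild type against 1.95 ± 0.412 FPKM in knockout, short of the threshold (limma adjusted p = 0.0568).

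Replication genes beyond the Mcm set were set beside the mitosis genes, with no test of the difference between the lists. Of 33 tested, 12 rose (36.4%) and 0 fell, with a median log2 fold change of 0.53, close to the 0.56 of the 34 mitosis genes. The primase subunit Prim2 rose from 1.10 ± 0.295 to 2.22 ± 0.391 FPKM and the polymerase alpha gene Pola1 from 1.72 ± 0.542 to 3.29 ± 0.447 FPKM (SD, 5 libraries each; limma adjusted p = 0.00928 and 0.00991), each also without every single library. Tyms and Ccne1 rose as well (limma adjusted p = 0.00164 and 0.0206), Ccne1 not without wild type 1 or 5 or knockout 3 or 5 (up to 0.0597). With the basal keratin score as covariate, of the called genes named from these lists outside the 34 only Cenph, Lin9 and Tyms were still called. E2f2, Spc25, Spc24, Smc2, Rbl2, Wee1 and Ccne1 also lost their calls without a filter on low values.

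Reads of some genes could be shared with others. At least 0.2 of the 31-base sequences of Ccnb1, Cdc20, Kif20a and Ube2c, and of Mcm7 among the reference genes, occur in another annotated gene. For Ccnb1 this is mainly the pseudogene Ccnb1-ps, which reached 0.98 FPKM. For Kif20a and Ube2c it is a gene on the opposite strand, Cdc23 at up to 3.54 FPKM and Tnnc2 listed at 0 throughout. For Cdc20 it is mainly the pseudogene Gm7856, at up to 0.14 FPKM, and 2.8% of its exon bases overlap Elovl1 on the opposite strand, which reached 266.42 FPKM. Whether the counting used strand is not known here. If it did not, reads from such overlaps cannot be told apart, and the levels of these genes are uncertain to that extent.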

How the data were processed

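The authors deposited 1 table of FPKM values for all 10 libraries. The epithelium was freed of muscle by forceps and of mesenchyme with Dispase, and its total RNA went into paired-end libraries, per the labels' protocols. The submitters' processing notes name the build mm9 and the tools cutadapt, HTSeq 0.6.1 and HISAT2 2.0.1. Settings, strand use and the scaling total were not given in the sources used here, and no count model was fitted.

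The test took the 11386 genes that reached 1 FPKM in 5 or more libraries, among them all 34 mitosis genes. Values were analysed as log2(FPKM + 1), which understates changes of low genes, with limma 3.58.1 in R 4.3.3 (model with genotype alone, trended and robust empirical Bayes, Benjamini-Hochberg adjustment over all tested genes, threshold 0.05). Fold changes are knockout minus wild type. With 252 assignments of the genotypes, the exact permutation test cannot give a p below 0.0079. Fragment totals are those at which FPKM of short single-exon genes (1200 bp or less) become whole fragments (90.9% to 98.4% of values within 0.01 beyond rounding, 9.4% to 11.2% by chance). Gene lengths, chromosomes and shared sequences came from GENCODE M21 on GRCm38, not the mm9 build.

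The 34 genes, the reference and the gene lists were chosen with earlier results of these data known. Values in every library are given for Mki67, Top2a, Ccnb1, Cdk1, any of the 34 past the threshold, the 3 largest and 3 smallest differences, Mcm2 and Mcm5; other lists name up to 4 called genes by smallest p, or the 2 smallest where fewer than 2 were called. All of the 34 and the Mcm genes could be named, and Stk3 and Stk4 served as the genotype check; keratins, other markers and copies were named after their values were seen. Alternatives were other pseudocounts, filters and scalings, plain empirical Bayes, sample quality weights, a replicate block, clock and basal keratin covariates, and leaving out each library with the tested genes kept. The test was checked on 20 simulated data sets with the means and spread of the tested genes, 200 of them changed, each gene varying independently. It recovered 30.8% of changes of 0.5 log2 units and 81.5% of changes of 1, and 4.3% of its calls were false. The changed genes were drawn at random from all tested genes, so the rates are averages over these. Among tested genes in general, changes near 0.56, the median of the mitosis genes, can therefore often be missed. The rates for the mitosis genes themselves were not measured. Python 3.11.15 with matplotlib 3.10.9 drew the figures.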

Additional observations from a re-analysis of the deposited data

Results flagged for a closer look

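Among 86 groups of 5 libraries examined (34 mitosis genes, 6 Mcm genes and 3 library means in each genotype), 3 had a library far from the other 4 by Dixon's ratio. Chance alone gives about 1 in 20 for independent groups, and 3 does not exceed that rate. These groups share the same libraries and are not independent, so the rate cannot decide whether the 3 are due to chance. All 3 were Mcm genes in wild type 4. Mcm2 was at 5.12 FPKM there against 1.42 to 2.37 FPKM in the other wild-type libraries, Mcm4 at 14.58 FPKM against 3.34 to 6.57 FPKM, and Mcm6 at 14.2 FPKM against 4.55 to 6.96 FPKM. No mitosis gene had such a library. In wild type 4 the mean of the 34 mitosis genes minus that of the Mcm genes was -1.57 log2 units, against -0.53 to 0.04 in the other wild-type libraries and -1.30 to -0.46 in knockout.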

How the results depend on the processing

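No mitosis gene was called lower under any alternative run, and 0 of 34 were called higher except without wild type 3 (11), without knockout 2 (2) and with the replicate block (19). With the block, 773 of the 11386 tested genes were called higher. The labels do not say whether the replicate numbers pair the samples. Over all tested genes, same-numbered libraries deviated together with correlations of -0.24 to 0.42. For 1 of 5 numbers the same-numbered library was the best correlated. Such correlations cannot exclude a pairing, and the count of mitosis genes called depends on whether there was one. With that block, 30 of the 34 were higher at an unadjusted p under 0.05, in place of 13; the count was 5 of 13 tested with a filter at 5 FPKM, 8 with median-ratio scaling and with quantile normalization, 1 with the clock or the basal covariate, 7 by the exact permutation test, and 7 to 29 without single libraries. Over all alternatives 655 of 693 single-gene results kept direction and side of the threshold and 32 passed it newly. In 6 the sign turned: with the clock covariate for Cdca8 (-0.10), Cenpa (-0.0540), Cenpe (-0.12), Cenpf (-0.195) and Racgap1 (-0.15), and without wild type 1 for Cenpf (-0.023, up to 0.23 without other single libraries). The cause was not tested.

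The median log2 fold change of the mitosis genes was 0.39 to 0.73 and that of the Mcm genes 0.71 to 1.11 without single libraries. Of the Mcm genes 3 were called with sample quality weights, 0 without a filter and with either covariate, and 0 to 6 without single libraries. Mitosis genes below the Mcm mean in direction, 33 in the main fit, numbered 7 with the basal covariate and 26 to 34 without single libraries. Mitosis genes called lower relative to the Mcm mean numbered 29 with quality weights, 1 without a filter and 0 to 14 without single libraries. With the filter at 5 FPKM this was not run, as Mcm2 was not tested. The shares of all tested genes called lower relative to the Mcm mean were not counted for these alternatives. The 900 higher and 565 lower genes became 511 higher without a filter, 1390 higher with quality weights, 340 higher and 310 lower with the basal covariate, 329 lower with the filter at 5 FPKM, and 436 to 1091 higher and 357 to 679 lower without single libraries. The median over all tested genes, 0.06, was 0.0026 without a filter, -0.00068 with median-ratio scaling and 0.11 with the clock covariate.

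Of the further mitotic genes (7 higher), 2 were called without a filter, with the filter at 5 FPKM and with the clock covariate, 3 with either scaling, 1 with the basal covariate, 23 with the replicate block and 2 to 17 without single libraries. Of condensin (2 higher), 1 was called without a filter, with either scaling and with the clock covariate, 0 with the basal covariate, 6 with the block and 1 to 4 without single libraries. Of the anaphase promoting complex 1 was called with quality weights and 0 to 2 without single libraries. Of the MuvB and E2F genes (3 higher, 1 lower), 1 was higher with the filter at 5 FPKM and the basal covariate and 5 with the clock covariate; 0 were lower without a filter, with the filter at 5 FPKM, the block or the basal covariate; without single libraries 2 to 6 were higher and 0 to 1 lower. Of the cell cycle inhibitors and checkpoint genes (1 higher), 0 were higher without a filter or with the block, 2 with quantile normalization or quality weights, and without single libraries 0 to 2 were higher and 0 to 1 lower. Of the other replication genes (12 higher), 3 were called without a filter, 4 with the filter at 5 FPKM and with the clock covariate, 7 with median-ratio scaling, 1 with the basal covariate and 3 to 18 without single libraries.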
